A study of Homo sapiens with 5 samples.

Results

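The 49 genes described here encode factors that make ribosomes in the nucleolus. They were taken by name from a fixed list of ribosome biogenesis genes, with 1 transcript kept per gene (the one of highest mean), and all 49 were found among the 10596 genes of the table. Expression had been measured by RNA sequencing in MDA-MB-231, a long-established human cell line from a triple-negative breast cancer, grown in IMDM with fetal bovine serum. Each of the 5 groups had 1 library. An siRNA against SET (siSET), an siRNA against CIP2A (siCIP2A) and a control siRNA (siNT) were given for 48 hours, although the treatment label of siCIP2A states no time. OP449, described in the series as an antagonist of SET, was given at 1 µM for 12 hours and set against a PBS control of 12 hours. SET and CIP2A are inhibitors of the phosphatase PP2A, and the title of the series places them beside the transcription factor MYC. The SET, CIP2A and MYC transcripts were not analysed here, so neither the silencing nor the MYC level could be examined.

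Ribosomes are built from rRNA that RNA polymerase I transcribes in the nucleolus. Small nucleolar ribonucleoproteins (snoRNPs) modify this precursor, a large early complex called the small subunit processome folds and cuts the part that becomes the small subunit, and separate sets of helicases, GTPases and scaffold proteins mature the large subunit. MYC is known to raise the transcription of many of these genes, often through the E-box, the DNA site that MYC and its partner MAX bind, and this programme is a hallmark of growing tumour cells.

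Values are scaled counts, the deposited read counts put on a common scale by the authors. The libraries held 3641329 reads over the gene table in siSET, 5602224 in siCIP2A, 5250308 in siNT, 4762701 in OP449 and 5513739 in PBS. Every member was well covered, with 84 to 3745 reads in each library. A log2 fold is taken on scaled counts with 1 added, and the brackets after it hold the 95% exact Clopper-Pearson counting interval of the ratio of 2 libraries. Each group being a single library, no comparison could be tested or has a replicate check, and the intervals cover counting error only. Genes with a mean of at least 50 scaled counts over both libraries were called higher or lower from 1.3-fold on. A second count, added after the data had been seen and with no demand on the fold, took the genes whose interval lay wholly on one side of equality. Scaled counts are relative to the library, so a change in cell number or in total RNA per cell cannot be seen in them. Of the line's mesenchymal markers, VIM stood at 15670 to 20866, CD44 at 13820 to 20560 and AXL at 15392 to 18128 scaled counts. ZEB1 was lower, at 761 to 908, and CAV1 had no values. The epithelial cadherin CDH1 stood at 12.9 to 56.7 and FOXA1 at 0 in all libraries but OP449, where it had 1 read. Other genes listed as low in such cells were not absent, with ESRP2 at 206 to 271, GATA3 at 133 to 250.1 and ERBB3 at 95.2 to 160.1.

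The promoters of the members often held an E-box, and 11 sites are shown because MYC is known to bind such letters. They come from members whose differences are described with values in the text. In windows of 300 bases, from 250 before to 50 after the RefSeq start on GRCh38.p14, the letters CACGTG, which read the same on both strands, occurred in 18 of 45 members with a window, or 40.0%. Among the 4612 genes of the table with a mean of at least 50 over the 5 libraries and a window, 482 or 10.5% held it, and among all 27305 promoters 7.43% did. Other ribosome biogenesis genes, from a second list described below, held it in 5 of 34 (14.7%) with the same floor and a window. Ribosomal protein genes held it in 3 of 32 (9.4%). The high share was thus seen in this list and not in the part of the second list that could be examined. Many genes of the second list had no values here. The motif CACGCG, searched on both strands and able to share bases with an E-box, occurred in 11 of 45 members (24.4%) against 18.0% of those 4612 genes. It occurred in 10 of the 34 other biogenesis genes (29.4%). The list had been put forward as a MYC-linked programme, so the high share of E-boxes describes it and is not independent evidence. Of 22 E-boxes in these 18 members, 18 began within 100 bases of the start. A match is a string of letters and not a shown binding site. RRP12, NOLC1, NOL10 and MPHOSPH10 had no entry. In the following lines, each on the strand of the gene and written from 5′ to 3′, capitals mark the E-box.
PNO1, chr2:68157885-68157914, plus strand: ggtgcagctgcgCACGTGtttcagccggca
NOP2, chr12:6568242-6568268, minus strand: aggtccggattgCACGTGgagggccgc
GNL2, chr1:37595917-37595946, minus strand: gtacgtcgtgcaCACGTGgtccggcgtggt
UTP20, chr12:101280083-101280112, plus strand: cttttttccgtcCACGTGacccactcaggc
WDR43, chr2:28894658-28894687, plus strand: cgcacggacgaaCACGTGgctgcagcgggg
FBL, chr19:39846356-39846385, minus strand: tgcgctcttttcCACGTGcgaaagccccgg
PRMT3, chr11:20387517-20387546, plus strand: ccgcccccacctCACGTGacccgcacggcg
NOC3L, chr10:94362903-94362932, minus strand: tagggacttcggCACGTGtgtcattccccg
DDX54, chr12:113185522-113185551, minus strand: ctcagcggaggtCACGTGgtcaccgcacct
EBNA1BP2, chr1:43172790-43172819, minus strand: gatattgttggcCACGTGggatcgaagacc
MYBBP1A, chr17:4555340-4555369, minus strand: ggggccggagcaCACGTGtttcgtgtttcg
The E-box began 10 bases into the transcript in PNO1, 36 in NOP2, 7 in FBL, 20 in NOC3L, 28 in MYBBP1A and 4 in both GNL2 and WDR43. It began before the start in UTP20 (position -10), DDX54 (-61), PRMT3 (-187) and EBNA1BP2 (-237). The other members with the motif were IMP4, EXOSC5, UTP18, NOP10, NAT10, NLE1 and MRTO4.

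Across the 5 libraries the group varied little. The highest value of a member was 1.09 to 1.97 times its lowest, with a median of 1.24, against a median of 1.303 over the 4733 genes whose means lay in the same range. OP449 was the library with the highest value for 24 of 49 members (48.98%), against 25.3% of all 6093 genes past the floor. The ribosomal protein genes shared this in part, with 17 of 41 (41.5%) highest in OP449. siSET was the library with the lowest value for 25 members (51.0%), against 23.6% of all genes. The control siNT was the highest for 1 member, POLR1D (2.04%, against 16.1% of all genes), and the other transcript row of POLR1D was highest in PBS. Members took up 0.726% of the reads in siSET, 0.806% in siCIP2A and 0.768% in siNT, and 0.829% in OP449 and 0.760% in PBS. Levels per kilobase of transcript were taken for the 36 members with a matching GENCODE length. Members without one, among them TSR1, PRMT1 and POLR1A, were not ranked. The RNA was reverse transcribed with oligo-dT, and whether reads covered transcripts evenly was not examined, so the order is rough. Among the 36, the snoRNP proteins FBL and NOP10 led with mean levels of 2282 and 1587 scaled counts per kilobase, followed by the large-subunit factor EBNA1BP2 at 1309. RRN3, which recruits RNA polymerase I to its promoter, stood at 103, and the lowest of the 36 was the helicase gene DDX51 at 58.5.

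**Figure D1:**
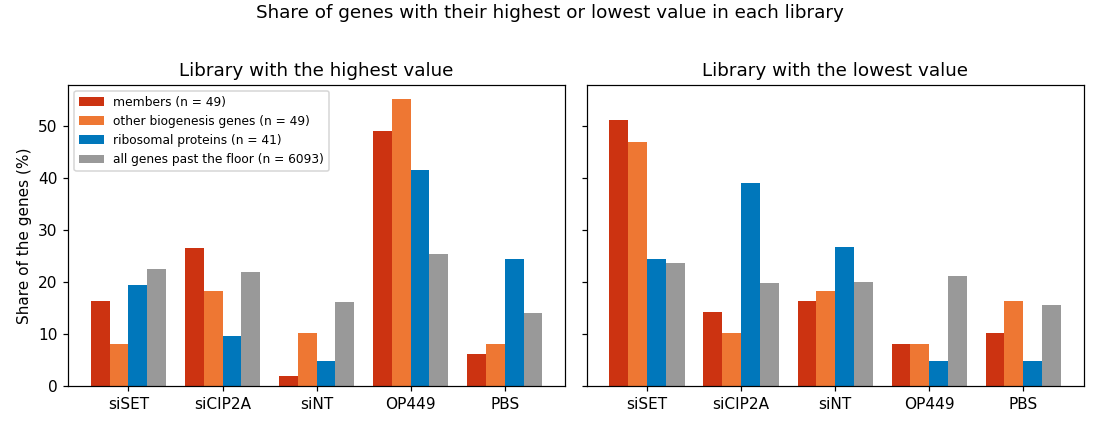
Share of genes (percent, bars from 0) that had their highest value (left) or lowest value (right) in each of the 5 libraries, for the 49 members, 49 other ribosome biogenesis genes, 41 ribosomal protein genes and all 6093 genes past the floor. The members' bars are tallest for OP449 on the left (48.98%) and for siSET on the right (51.0%).

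The first comparison asked how the programme differs when SET is silenced. Large-subunit genes lay mostly below the control: 12 of 14 stood below siNT in siSET, with a median log2 fold of -0.15. Of the 14, 4 had an interval below equality (28.6%, against 19.8% of all genes), and 10 had intervals that included it. NOC3L, DDX54, BMS1 and RRP12 were at least 1.3-fold lower and PRMT3 was at least 1.3-fold higher. These 4 lower members (8.16%) and 1 higher member (2.04%) compare with 9.68% lower and 8.88% higher among all 6084 genes past the floor, so the share of calls was no larger than over all genes. Of the 49 members, 19 (38.8%) stood above siNT and 30 below, against 52.1% and 47.9% of all genes, and their median log2 fold was -0.03 against 0.01 over all genes.

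NOC3L, whose yeast counterpart takes part in the nuclear transport of large-subunit precursors, had 309.6 scaled counts in siSET, 611 in siCIP2A and 500.1 in siNT, and 548 in OP449 and 572 in PBS. The siSET library was far below the other 4, from 181 reads. The gene spans chromosome 10 from 96092989 to 96122683 on hg19. The log2 fold against siNT was -0.69 [-0.95 to -0.44], and against PBS it was -0.88 [-1.14 to -0.64]. DDX54, a DEAD-box RNA helicase, had 1191 in siSET, 1573 in siCIP2A and 1602 in siNT, and 1530.5 in OP449 and 1607 in PBS. Here too siSET stood alone, and the other 4 libraries lay close together. Its log2 fold was -0.43 [-0.56 to -0.30] against siNT and -0.43 [-0.57 to -0.30] against PBS. It spans chromosome 12 from 113594984 to 113623284, and 2097 bases or 7.41% of that span overlap CCDC42B on the opposite strand. CCDC42B had 205 in siSET and 244 in siNT. Whether strand was used in counting was not given in the sources used here, and the part of shared reads in the result was not tested.

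BMS1, the GTPase of the small subunit processome, had 984 in siSET, 1469 in siCIP2A and 1319 in siNT, and 1358 in OP449 and 1399.9 in PBS. siSET was again the lowest library, at -0.42 [-0.57 to -0.28] against siNT and -0.51 [-0.65 to -0.37] against PBS. BMS1, on chromosome 10 from 43277954 to 43330383, has near-identical pseudogene copies whose reads it may share, so its value is uncertain. RRP12, a HEAT-repeat protein needed in yeast for nuclear export of pre-ribosomes, had 582 in siSET, 763 in siCIP2A and 774 in siNT, and 1138 in OP449 and 669 in PBS. The siSET value was the lowest of the 5, but RRP12 was also higher in siNT than in PBS. Its log2 fold was -0.41 [-0.61 to -0.22] against siNT and -0.20 [-0.40 to -0.01] against PBS, which is under 1.3-fold.

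By the counting interval alone, 12 of 49 members (24.5%) lay below siNT and 4 (8.16%) above, against 19.8% on each side over all genes. Among the 4746 genes whose mean lay in the members' range, the shares were 21.0% below and 20.2% above. Besides the 4 genes already named, those below were DDX21, a helicase that couples polymerase I transcription to processing (-0.37), the large-subunit genes DDX55 (-0.34) and EBNA1BP2 (-0.25), and, at -0.10 to -0.18, UTP20, MYBBP1A, WDR43, NOLC1 and TSR1. MYBBP1A overlaps SPNS2 on the opposite strand over 6.29% of its span, and SPNS2 had 475.6 in siSET and 888 in siNT. TSR1 overlaps SRR in the same way over 17.4% of its span, and SRR had 994 in siSET and 959.9 in siNT. The part of these genes in the result was not tested. Those above, besides PRMT3, were EXOSC5, a subunit of the RNA exosome (0.32), FBL, fibrillarin, which methylates rRNA (0.25), and POLR1A, the largest subunit of RNA polymerase I (0.15). With PBS as the control, the siSET log2 folds of UTP20 (-0.14), NOLC1 (-0.04), MYBBP1A (-0.02), TSR1 (0.04) and EXOSC5 (0.15) had intervals that included equality. DDX21 had 2951 scaled counts in siSET, 4076 in siCIP2A and 3827 in siNT, and 3989.8 in OP449 and 3652 in PBS, so that siSET was the lowest library. FBL had 2847 in siSET, 2525 in siCIP2A and 2399.9 in siNT, and 2865 in OP449 and 2600.4 in PBS. FBL lies on chromosome 19 from 40325094 to 40337054. For FBL the siNT library was the lowest, and siSET stood at 0.13 [0.04 to 0.22] against PBS.

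The remaining 33 members had intervals that included equality. The machinery of RNA polymerase I showed no shared direction. POLR1B, its second subunit, stood at 0.08 [-0.08 to 0.24], RRN3 at 0.11 [-0.14 to 0.36] and POLR1D, shared with polymerase III, at -0.03 [-0.25 to 0.18]. RRN3 has near-identical copies on its own chromosome, so its value is uncertain. Of the 7 snoRNP and modification genes, 5 stood above siNT, among them the pseudouridine methyltransferase gene EMG1 at 0.19 [-0.07 to 0.45], and the acetyltransferase gene NAT10 stood at 0.01 [-0.13 to 0.14]. Among late small-subunit factors, the endonuclease gene NOB1 stood at 0.19 [-0.02 to 0.40] and its partner gene PNO1 at 0.09 [-0.14 to 0.32]. The large-subunit genes NVL, an AAA ATPase (-0.17), NOL9, an RNA kinase of spacer processing (-0.16), GRWD1 (-0.16), NIP7 (-0.13) and GNL2, a GTPase (-0.11), all had intervals that included equality.

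The second comparison set CIP2A silencing against the same control. Of 49 members, 31 (63.3%) stood above siNT and 18 below, against 52.7% and 47.3% of all genes, with a median log2 fold of 0.07 against 0.02 over all genes. PRMT3 was the only member at least 1.3-fold higher (2.04%), and 0 were at least 1.3-fold lower, against 8.78% and 7.74% of all 6102 genes. Intervals lay above equality for 12 members (24.5%) and below for 6 (12.2%), against 21.3% and 20.2% of all genes. Among the 4746 genes in the members' range of means the shares were 22.8% and 21.6%.

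PRMT3, an arginine methyltransferase whose substrate is the small ribosomal protein RPS2, had 465 scaled counts in siSET, 521 in siCIP2A and 329 in siNT, and 619.7 in OP449 and 486 in PBS. The control siNT was the lowest of the 5 libraries, and siSET, siCIP2A and PBS lay close together. Its log2 fold was 0.66 [0.44 to 0.88] in siCIP2A and 0.50 [0.25 to 0.74] in siSET, which share the siNT library, and -0.56 [-0.78 to -0.34] in siNT against PBS. Against PBS, siCIP2A stood at 0.10 [-0.09 to 0.29] and siSET at -0.06 [-0.29 to 0.16]. Its gene spans chromosome 11 from 20409076 to 20530877 on hg19. Its other 2 transcript rows have the same span and can hold the same reads, so they are no separate check. They stood at 0.68 and 0.67 in siCIP2A and 0.52 and 0.52 in siSET.

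Small-subunit genes made up most of those with an interval above equality. Of 20 such genes 13 stood above siNT, 8 of them with an interval above equality. These were PRMT3, UTP6 (0.31), DDX10 (0.24), NOL11 (0.23), WDR3 (0.22), IMP4 (0.22), WDR43 (0.18) and BMS1 (0.15). Against PBS the intervals of PRMT3, UTP6, DDX10 (0.04) and BMS1 (0.07) included equality, and those of NOL11, WDR3, IMP4 and WDR43 lay above it. UTP6, a scaffold protein of the processome, had 631 in siSET, 703 in siCIP2A and 566 in siNT, and 688 in OP449 and 640.5 in PBS. The siNT library was the lowest for UTP6 also, and its fold in siCIP2A against PBS was 0.13 [-0.03 to 0.30]. WDR3, a WD-repeat protein of the same complex, had 1013 in siSET, 1202 in siCIP2A and 1029.9 in siNT, and 1053 in OP449 and 1037 in PBS. There the siCIP2A value was above the other 4, which lay within a narrow band, and its interval against PBS was 0.09 to 0.34.

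The other members with an interval above equality were NOC3L (0.29), NOLC1, a chaperone of snoRNPs (0.19), POLR1A (0.18) and DDX21 (0.09). Against PBS, NOC3L stood at 0.09 [-0.08 to 0.27]. NOLC1 had 3257 in siSET, 4135 in siCIP2A and 3632 in siNT, and 3313 in OP449 and 3359 in PBS, with siCIP2A the highest, at 0.30 [0.23 to 0.37] against PBS. POLR1A had 1829 in siSET, 1872 in siCIP2A and 1649.7 in siNT, and 1595 in OP449 and 1635 in PBS. Both silenced libraries stood above the other 3 for this gene, whose fold in siCIP2A against PBS was 0.20 [0.09 to 0.30]. Its hg19 span is chromosome 2 from 86253453 to 86333278. Intervals below equality belonged to NOL9 (-0.25), UTP20 (-0.20), MYBBP1A, a nucleolar regulator of polymerase I (-0.16), PDCD11, the human RRP5 (-0.16), POLR1B (-0.16) and EBNA1BP2 (-0.10). Of these 6, EBNA1BP2 also had an interval below equality against PBS, of -0.23 to -0.03, and PDCD11 stood above PBS, at 0.18 [0.06 to 0.31].

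**Figure D2:**
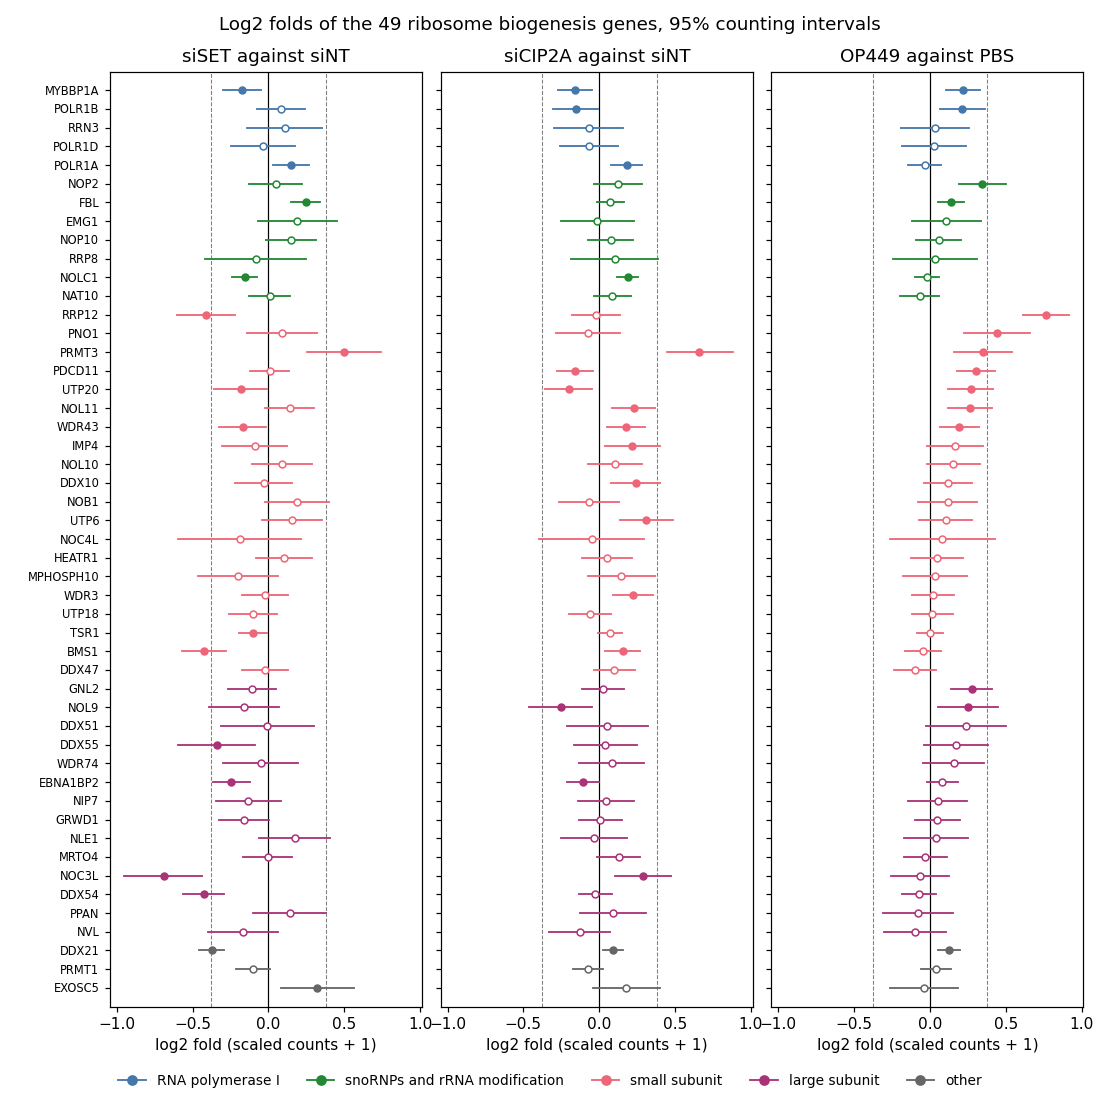
Log2 folds (x axis, scaled counts with 1 added) of the 49 members, one row per gene and coloured by role, in siSET against siNT, siCIP2A against siNT and OP449 against PBS. Points are folds, filled where the 95% counting interval (line) excludes equality, and dashed lines mark a 1.3-fold difference. In OP449 no filled point lies below 0, and in siSET the lowest point is NOC3L at -0.69.

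The third comparison asked how the programme differs after 12 hours of OP449. The members leaned above the control: 38 of 49 stood above PBS (77.6%) and 11 below, against 53.7% and 46.3% of all 6096 genes, with a median log2 fold of 0.08 against 0.02 over all genes. RRP12 and PNO1, both small-subunit factors, were at least 1.3-fold higher (4.08%, against 7.15% of all genes), and 0 members were at least 1.3-fold lower, against 5.74% of all genes. Intervals lay above equality for 14 members (28.6%) and below for 0, against 19.3% and 16.9% of all genes. Among the 4668 genes with a mean in the members' range, the shares were 21.2% above and 17.7% below. The differences were mostly small, and those beyond counting error were all above PBS.

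RRP12 had the largest fold of any member in this comparison. Its 1138 scaled counts in OP449, from 883 reads, stood above all the other libraries, whose highest was siNT at 774, and PBS had 669 from 590 reads. The log2 fold was 0.77 [0.61 to 0.92], a 1.70-fold difference. Its other transcript row, which has the same span and can hold the same reads, gave 0.76. The gene spans chromosome 10 from 99116459 to 99161127 on hg19. PNO1, on chromosome 2 from 68385005 to 68403089, is a KH-domain protein that holds the end of the small-subunit rRNA until NOB1 cuts it. It had 469 in siSET, 417 in siCIP2A and 439.7 in siNT, and 502 in OP449 and 369.5 in PBS. OP449 was the highest library and PBS the lowest, and the 3 siRNA libraries lay between them. Its fold was 0.44 [0.23 to 0.66], and siNT too stood above PBS, at 0.25 [0.03 to 0.47]. NOB1 itself stood at 0.12 [-0.08 to 0.31].

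NOP2, the rRNA cytosine methyltransferase, had 772 in siSET, 814 in siCIP2A and 747 in siNT, and 955 in OP449 and 752 in PBS. The gene lies on chromosome 12 from 6666037 to 6677480. OP449 alone stood apart, at 0.34 [0.19 to 0.50], or 1.27-fold. PRMT3 was also highest in OP449, at 0.35 [0.16 to 0.54]. PDCD11 had 1396 in siSET, 1244 in siCIP2A and 1389 in siNT, and 1354 in OP449 and 1097 in PBS. Its fold in OP449 was 0.30 [0.18 to 0.43], but PBS was the lowest library and siNT stood as far above it, at 0.34 [0.22 to 0.46]. GNL2, a nucleolar GTPase of large-subunit assembly, had 915 in siSET, 1004 in siCIP2A and 986 in siNT, and 1230.3 in OP449 and 1017 in PBS. OP449 was again the highest library, at 0.27 [0.14 to 0.41]. The other members with an interval above equality were the processome genes UTP20 (0.27), NOL11 (0.26) and WDR43 (0.20), NOL9 (0.25), MYBBP1A (0.22), POLR1B (0.21), FBL (0.14) and DDX21 (0.13). SPNS2, which overlaps MYBBP1A, had 599 in OP449 and 583 in PBS.

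By role, 18 of 20 small-subunit genes stood above PBS, 7 with an interval above equality, and their median was 0.12. Of the large-subunit genes 9 of 14 stood above, 2 with an interval above equality and a median of 0.05. The snoRNP and modification genes had a median of 0.06, with 5 of 7 above, and the 5 polymerase I genes a median of 0.03. POLR1A stood at -0.04 [-0.15 to 0.08], RRN3 at 0.03 [-0.19 to 0.26] and POLR1D at 0.03 [-0.19 to 0.24], so apart from POLR1B and MYBBP1A the polymerase genes differed by less than counting error. The 11 members below PBS in OP449 were NVL (-0.10) and DDX47 (-0.10), with PPAN (-0.08), DDX54 (-0.07), NAT10 (-0.07), NOC3L (-0.06), BMS1, POLR1A and EXOSC5 (-0.04 each), MRTO4 (-0.03) and NOLC1 (-0.02), all with intervals that included equality. PPAN lies within the readthrough transcript PPAN-P2RY11 over 97.9% of its span and may share its reads.

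**Figure D3:**
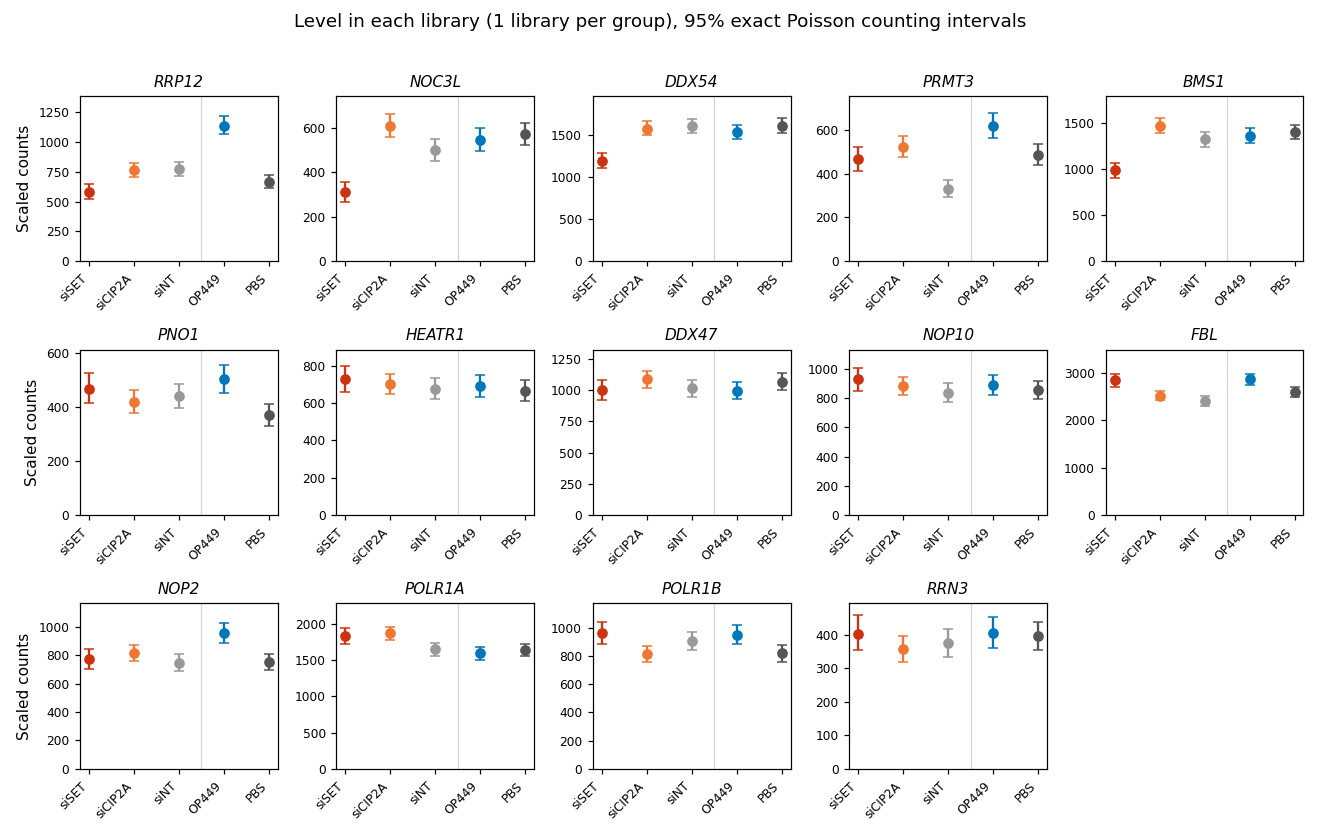
Scaled counts (y axis from 0, scaled to each panel) of 14 members in the 5 libraries, siRNA libraries left of the grey line and 12-hour libraries right of it, 1 library per group. Bars are 95% exact Poisson counting intervals. RRP12 is highest in OP449 (1138), NOC3L lowest in siSET (309.6), PRMT3 lowest in siNT (329), and HEATR1, DDX47 and NOP10 are nearly level.

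Some members were nearly level in all 5 libraries. HEATR1, a processome scaffold, had 725 in siSET, 700.1 in siCIP2A and 676 in siNT, and 688 in OP449 and 665 in PBS. DDX47, a processome helicase, had 997 in siSET, 1085 in siCIP2A and 1013 in siNT, and 995 in OP449 and 1066 in PBS. NOP10, of the snoRNPs that make pseudouridine, had 929 in siSET, 883 in siCIP2A and 838 in siNT, and 890.2 in OP449 and 856 in PBS. None of the 4 comparisons placed the interval of these 3 genes off equality. RRN3, on chromosome 16 from 15153881 to 15188158, also varied little, with 404 in siSET, 357 in siCIP2A and 374 in siNT, and 405 in OP449 and 396 in PBS. POLR1B had 961 in siSET, 814 in siCIP2A and 907 in siNT, and 949 in OP449 and 818 in PBS, so siSET and OP449 were its highest libraries. It lies on chromosome 2 from 113299492 to 113334727. The rRNA methyltransferase gene RRP8, the processome genes UTP18, NOL10, MPHOSPH10 and NOC4L, the large-subunit genes WDR74, DDX51, NIP7, GRWD1, NLE1, NVL and PPAN, the methyltransferase gene PRMT1, NAT10, EMG1 and NOB1 also had intervals that included equality in all 4 comparisons. These genes were not all as level, and the highest value was 1.35 times the lowest for MPHOSPH10 and 1.32 times for WDR74. With PBS as the control, siSET intervals lay below equality for MPHOSPH10 (-0.40), WDR74 (-0.25), UTP18 (-0.22) and PRMT1 (-0.13). For siCIP2A against PBS they lay below for UTP18 (-0.17) and PRMT1 (-0.10) and above for NAT10 (0.12). NOC4L and DDX51 lie 112 bases apart on chromosome 12 in opposite directions. In OP449 their folds were 0.08 [-0.26 to 0.43] and 0.24 [-0.02 to 0.50].

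The controls give a scale for these differences. Of 49 members, 1 (PRMT3, 2.04%) was at least 1.3-fold lower in siNT than in PBS and 0 were higher, against 5.88% and 5.78% of all 6076 genes. Intervals lay above equality for 7 members (14.3%) and below for 5 (10.2%), against 17.7% and 17.6% of all genes, and the median was -0.03. By value alone 19 members (38.8%) stood above PBS in siNT and 30 below. Of all 6076 genes, 2979 stood above (49.03%) and 3097 below. The members' counts in siSET against siNT, which shares the siNT library, were also 19 and 30, with 52.1% of all genes above. The 7 above were PDCD11, POLR1D (0.28 on the row used), PNO1, RRP12 (0.21), MYBBP1A (0.15), TSR1 (0.14) and NOLC1 (0.11). The 5 below were PRMT3, DDX10 (-0.20), NOC3L (-0.19), MRTO4 (-0.15) and FBL (-0.12).

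With PBS in place of siNT, which adds a difference in time and treatment, siSET had 0 members at least 1.3-fold higher and 4 lower (8.16%), against 7.87% and 9.20% of all genes. These 4 were NOC3L, DDX54, BMS1 and MPHOSPH10, a processome gene at -0.40 [-0.66 to -0.15]. Intervals lay above equality for 6 members and below for 13, against 19.2% and 19.3% of all genes. In siCIP2A 0 members were at least 1.3-fold higher and 0 lower, against 8.64% and 7.77% of all genes. There, intervals lay above equality for 12 members and below for 3, against 22.4% and 20.4% of all genes.

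Transcript rows of the same gene mostly gave similar values. Most further rows have the genomic span of the row used and can hold the same reads, so their agreement is no independent check. Of 15 further transcript rows of 13 members, 14 or 15 had the sign of the row used in each of the 4 comparisons, and the largest departure was POLR1D in siNT against PBS, by 0.38 on the log2 scale. There the row used stood at 0.28 [0.09 to 0.48] and the other row at -0.09 [-0.35 to 0.16]. The place of POLR1D above PBS thus depends on the row.

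By median fold, members with an E-box did not separate clearly from those without. RRP12, NOLC1, NOL10 and MPHOSPH10, which had no window, were left out. In OP449 the 18 members with CACGTG had a median log2 fold of 0.11, with 8 intervals above equality, and the 27 without it had 0.05, with 5 above. Over all genes past the floor, 19.3% had an interval above equality. Interval counts of genes that are not members were not split by the motif. In siSET the medians were -0.05 and -0.03, and in siCIP2A they were 0.07 and 0.05. In siSET, intervals lay above equality for 3 and below for 6 of the 18, and above for 1 and below for 4 of the 27. The share of all genes was 19.8% on each side. In siCIP2A they lay above for 4 and below for 3 of the 18, and above for 7 and below for 3 of the 27. Of all genes, 21.3% lay above and 20.2% below. Among genes that are not members, the median in OP449 was 0.01 with the motif (461 genes) and 0.03 without it (4083 genes). The ranges of the members with and without the motif overlapped in every comparison, and no test of the difference was made.

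**Figure D4:**
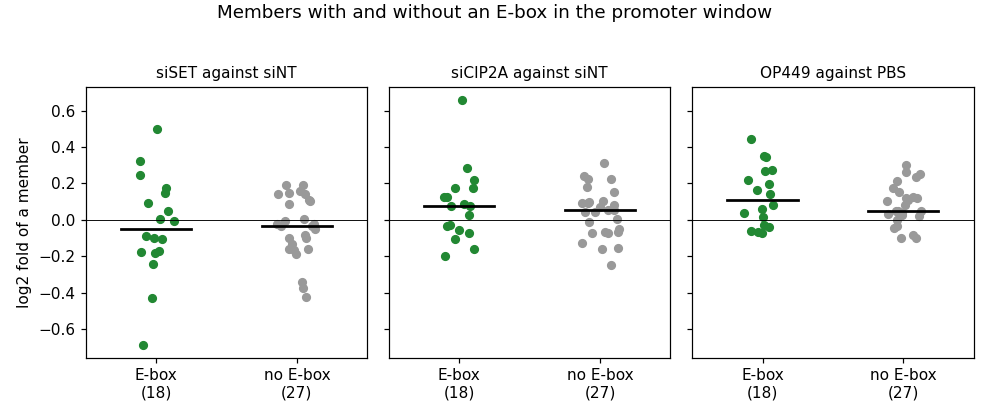
Log2 folds of members with an E-box in the promoter window (left in each panel, 18 genes) and without one (right, 27 genes), in siSET against siNT, siCIP2A against siNT and OP449 against PBS. Each point is a gene and the bar is the median, 0.11 and 0.05 in OP449.

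Other genes of ribosome biogenesis, taken from a second list, were counted in the same way. Many genes of that list had no values here, so the counts cover a part of it. Of 49 measured, 38 stood above PBS in OP449, 23 with an interval above equality (46.9%) and 3 below (6.12%), against 19.3% and 16.9% of all genes, with a median of 0.16. DHX37, a processome helicase, had 449.6 in OP449 against 328 in PBS, at 0.46 [0.23 to 0.69], and siNT also stood above PBS, at 0.35 [0.12 to 0.58]. CIRH1A, now named UTP4, had 1107 in OP449 against 834 in PBS, at 0.41 [0.26 to 0.55]. EFTUD1, now EFL1, which helps release the last blocking factor from the large subunit, stood at 0.38 [0.14 to 0.63], and PIH1D1, a cofactor of snoRNP assembly, at -0.37 [-0.51 to -0.23]. DHX37, CIRH1A and EFTUD1 were the 3 genes at least 1.3-fold higher (6.12%, against 7.15% of all genes), and PIH1D1 had the largest fold below PBS.

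In siSET, 31 of these 49 genes stood below siNT, 17 with an interval below equality (34.7%) and 2 above (4.08%), against 19.8% of all genes on each side, with a median of -0.09. PELP1, RBM19 (-0.49), DHX37 (-0.45) and RPF1 (-0.41) were at least 1.3-fold lower (8.16%, against 9.68% of all genes). DHX37 against PBS stood at -0.11 [-0.38 to 0.17]. PELP1 had 349 in siSET against 653 in siNT, at -0.90 [-1.14 to -0.67], and PBS was at 669.9. In siCIP2A the list had a median of 0.06, with 12 intervals above equality (24.5%) and 5 below (10.2%), against 21.3% and 20.2% of all genes. At least 1.3-fold, 1 gene was higher (2.04%) and 2 were lower (4.08%), against 8.78% and 7.74% of all genes, so calls were fewer than over all genes. MPHOSPH6, an exosome cofactor, stood at 0.67 [0.44 to 0.91], WDR18 at -0.51 [-0.72 to -0.31], the ATPase gene RUVBL2 at -0.43 [-0.54 to -0.32] and DDX49 at -0.36 [-0.54 to -0.17].

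Ribosomal protein genes, the structural parts of the finished ribosome, were set beside the factors that build it. The 41 genes past the floor had a median of 0.04 in siSET against siNT, with 28 above (68.3%) and with 14 intervals above equality (34.1%) and 7 below (17.1%). Of all genes, 52.1% stood above siNT and 19.8% had an interval on each side. Against PBS the siSET median was -0.03, with 17 above (41.5%) and with 3 intervals above equality (7.32%) and 14 below (34.1%). Of all genes, 51.3% stood above PBS, with 19.2% of intervals above equality and 19.3% below. The siNT library itself stood below PBS for 34 of 41, with a median of -0.09. In siCIP2A against siNT the median was 0.00, with 8 intervals on each side (19.5%), against 21.3% above and 20.2% below over all genes. In OP449 against PBS it was 0.02, with 6 intervals above equality (14.6%) and 8 below (19.5%), against 19.3% and 16.9% of all genes. Mitochondrial ribosomal protein genes, 44 in number, stood at 0.04 in siSET, -0.02 in siCIP2A and -0.04 in OP449. The difference between these lists and the members was not tested.

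**Figure D5:**
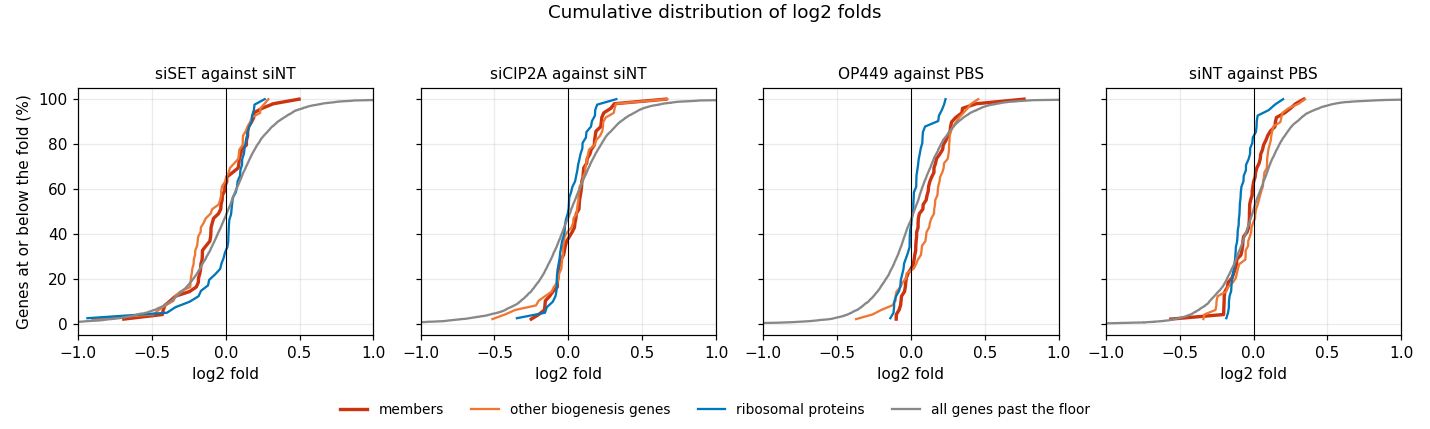
Cumulative share of genes (y axis, percent) at or below each log2 fold (x axis, cropped at 1 on either side), for the members, the other biogenesis genes, the ribosomal proteins and all genes past the floor, in the 4 comparisons. In OP449 against PBS the curves of both biogenesis lists lie at their middle to the right of the others, with medians of 0.08 and 0.16, against 0.02 for ribosomal proteins and for all genes.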

How the data were processed

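RNA of MDA-MB-231 cells was reverse transcribed with oligo-dT and sequenced on an Illumina GAII, per the labels' protocols. The submitters' processing notes name hg19, CASAVA and Bowtie 1.0.0. The authors deposited a scaled signal for each RefSeq transcript. The scaling method, counting program and use of strand were not given in the sources used here. Dividing by a library's smallest value above 0 gave whole reads for 100% of the values (tolerance 0.001 reads). The table held 16383 transcript rows, and 15 rows whose symbols had become dates were renamed through their accessions. Each gene was represented by its row with the highest mean. Folds used a pseudocount of 1 and a floor of 50, and intervals are exact (scipy 1.17.1). The arithmetic was checked on simulated counts that varied by counting error alone, so variation between libraries was not examined. Counting error is the only error covered. Coordinates of genes are hg19. Promoters are RefSeq windows on GRCh38.p14, the first listed per gene. GENCODE lengths were used where the genomic span matched within 2%. The members and lists were chosen with earlier results of these data known. Members past 1.3-fold with an interval off equality, the 3 with the smallest range and FBL, NOP2, POLR1A, POLR1B and RRN3 were given in every library, and further members, the counts by interval and the genes in the members' range of means were added after the data had been seen. Up to 4 genes of the second list with the largest folds were named per comparison. Single ribosomal protein genes are not reported here.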

Additional observations from a re-analysis of the deposited data

How the results depend on the processing

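Under 3 other scalings (equal totals, equal upper quartiles, median of ratios) the median log2 fold of all genes stayed between -0.02 and 0.05, and no named member changed direction among those past its threshold. Counts at a 1.3-fold threshold rest on few genes. At 1.5-fold, siSET had 0 members higher and 1 lower, OP449 1 higher, and siNT against PBS 0 lower. At 2-fold, siSET had 0 higher and 0 lower, siCIP2A 0 higher, OP449 0 higher and siNT against PBS 0 lower. Counting every transcript row gave 3 higher rows in siSET, 3 in siCIP2A and 3 lower in siNT against PBS. The share of all genes at 1.5-fold, at 2-fold or by transcript row is not given. These counts therefore cannot be read against a background. With PBS as the control, siSET and siCIP2A had 0 members higher, and siCIP2A had 3 intervals below equality in place of 6. Intervals below equality in siNT against PBS numbered 3 after rescaling to equal totals and 3 by the median of ratios, in place of 5. The causes were not tested. The other 179 recomputed counts and medians moved by at most 1.5 times, or for medians stayed within the counting interval of the member nearest the median. The siSET library was the shallowest, so its intervals are the widest. No paired analysis was possible because each group had 1 library. No replicate could be left out for the same reason.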

Other observations

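Genes of the complex of PELP1, WDR18 and SENP3, which acts on the large-subunit precursor, did not share a pattern. They were picked out after their values were seen. PELP1 had 349 scaled counts in siSET, 621 in siCIP2A and 653 in siNT, and 747 in OP449 and 669.9 in PBS, so siSET alone stood apart, at -0.94 [-1.18 to -0.71] against PBS. WDR18 had 511 in siSET, 393 in siCIP2A and 562 in siNT, and 499.9 in OP449 and 535 in PBS, with siCIP2A the lowest, at -0.44 [-0.65 to -0.24] against PBS. SENP3 had 1218 in siSET, 1167 in siCIP2A and 1222 in siNT, and 1278 in OP449 and 1124 in PBS. Of these 3 genes SENP3 had an interval off equality in OP449 alone among the siSET, siCIP2A and OP449 comparisons, at 0.18 [0.06 to 0.31].

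MPHOSPH6 had the largest fold above siNT of the second list in siCIP2A, with 438 scaled counts there, 280.5 in siSET and 275 in siNT, and 308 in OP449 and 255 in PBS. Against PBS it stood at 0.78 [0.54 to 1.02], so its value in siCIP2A was above all other libraries.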
